A study of Danio rerio with 6 samples.

Results

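The lncRNAs described here are the assembled transcripts that the deposited table lists nearest to a gene of RNA binding, splicing or translation. They were chosen by the name of that gene alone, with a pattern of 39 name stems such as srsf, rbfox, rbm, ddx and eif. The pattern found 35 of the 8363 lncRNAs, at 30 genes and 33 loci, which is 1.09% of the 3204 lncRNAs with a named gene. The 3169 others with a named gene serve as the comparison. All 30 names belong to protein-coding genes in RefSeq (assembly GRCz12tu, used for names only). The names do not say what the lncRNAs do.

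RNA was sequenced from ZF4, a fibroblast line derived from zebrafish embryos, in 3 control cultures at 28°C and in 3 cultures held at 18°C for 30 days in the same medium. No gene was altered and no agent was added in either group. The table gives a single mean per group in FPKM, the number of fragments relative to transcript length in kb and to all mapped fragments, and lists lncRNAs only. The spread between the 3 cultures is therefore unknown, no difference below has a test or a replicate check, and no marker mRNA of fibroblasts could be read. The depth of each library is also unknown from the table. Below, 28°C stands for the mean of the control cells and 18°C for that of the cold acclimated cells. Each difference is a log2 ratio of the 18°C mean over the 28°C mean after adding 0.1 FPKM to both, which understates the change of lncRNAs with low values. In a bulk culture, fewer cells that make a transcript and less of it per cell cannot be told apart.

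RNA-binding proteins decide how a transcript is spliced, where it goes, how long it lasts and how much protein it gives. SR proteins and hnRNPs bind exons and introns and steer the spliceosome, and families such as RBFOX, CELF and MBNL set splicing patterns that differ between tissues. Initiation factors load ribosomes onto mRNAs, and Argonaute proteins with their TNRC6 partners silence them. In mammalian cells, several RNA-binding proteins such as CIRBP and RBM3 are known for their induction by mild cold. None of the 35 lncRNAs was listed at a cirb or rbm3 gene. lncRNAs were found for 20 of the 39 stems, and hnrnp, ptbp, elavl, fus and sf3 were among the stems with none.

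The 35 lncRNAs lay on 17 chromosomes, with at most 4 on any of them. A single lncRNA was listed at 25 of the genes and a pair at 5 of them, srsf10a, rbfox1, ddx54, larp1 and mbnl2. No gene had 3 or more, whereas 205 of the 2227 other named genes did. For 25 of the 35, no other listed lncRNA lay within 30 kb. Known lncRNAs of the NONCODE database had been filtered out by the authors and could not appear as neighbours. The share among the others with a named gene was not computed. The table does not say whether an lncRNA overlaps its gene or on which strand it lies. No gene was named for 5159 of the 8363 lncRNAs, and the paper places most of the 8363 in intergenic regions. If those without a named gene are the intergenic ones, the lncRNAs described here lie in or across their gene rather than beside it. This was not tested. Positions are those of GRCz10.

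A single exon was listed for 22 of the 35 lncRNAs (62.9%, 95% Wilson interval 46.3% to 76.8%) and for 60.1% of the others with a named gene. There were 12 with 2 exons, and MSTRG.2919.9 at rbm39a had 4. Transcripts with 3 or more exons thus made up 2.86% of the set, against 13.4% of the others. That share rests on 1 lncRNA. The lower-case pattern also missed 2 lncRNAs with 3 exons at CELF6, which would have raised it. The median length was 619 nt, with an interval of 500 to 1065 nt from order statistics, and the range was 241 to 3001 nt. The others had a median of 501 nt, just inside the interval of the set. The longest was the single-exon MSTRG.4878.1 at eif3s10, which encodes the large scaffold subunit of the initiation factor eIF3. These intervals cover counting over transcripts only.

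The gap between the exons of the 12 lncRNAs with 2 exons took either very small or very large values. It was obtained as the listed span minus the listed length. At srsf10a the gap was 24 nt in MSTRG.9008.1 and 30 nt in MSTRG.9008.2. It was 27 nt in MSTRG.30100.1 at igf2bp2a, 33 nt in MSTRG.10898.1 at snrpa and 42 nt in MSTRG.16108.1 at larp1. These 5 gaps are shorter than introns usually are in vertebrate genes. The remaining 7 ranged from 11948 nt in MSTRG.25628.1 at ddx54 to 64158 nt in MSTRG.13443.1 at mbnl1. Among the others with a named gene, 57 of 842 lncRNAs with 2 exons (6.77%) had a gap under 50 nt, against 5 of 12 here (41.7%, Wilson interval 19.3% to 68.0%). A gap from 50 nt to 10 kb was found in 56.4% of those others and in none of the 12. The bound of 50 nt was chosen after the values were seen, and that of 10 kb was not planned beforehand either. No gap of the 12 lay between 42 and 11948 nt, so any bounds within that range hold none of them. The contrast with 56.4% therefore carries no weight of its own. With a bound of 100 nt in place of 50 nt, the shares under the bound were 14.4% and again 5 of 12. The 2 srsf10a transcripts share a locus, so the 5 are not independent of each other. Nor are the 7, since the 2 mbnl2 transcripts share a locus, with gaps of 55698 and 55690 nt. The Wilson interval does not take this into account. What the short gaps are was not tested.

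**Figure D1:**
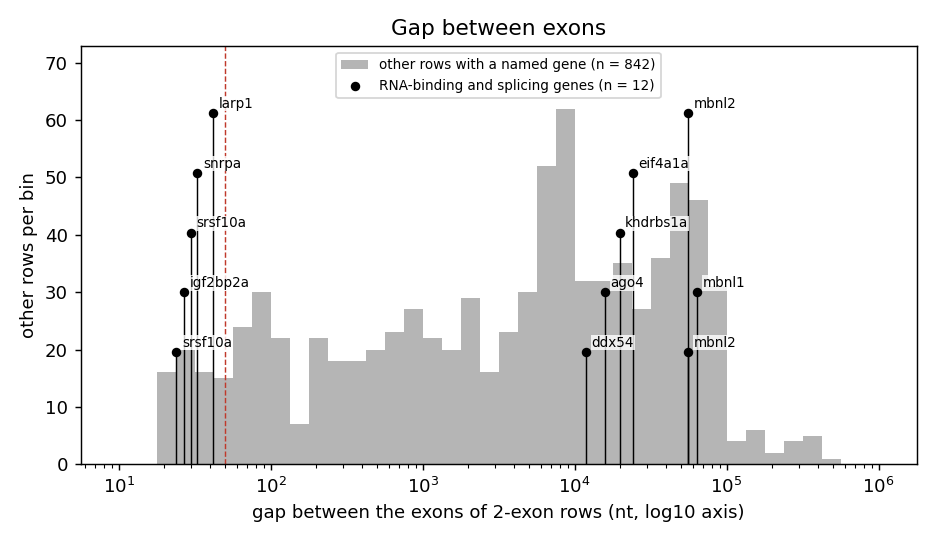
Gap between the exons of lncRNAs with 2 exons, in nt on a log10 axis. Grey bars count the 842 other lncRNAs with a named gene, black stems mark the 12 at RNA-binding and splicing genes (stem heights only separate the labels), and the dashed line is at 50 nt. Of the 12, 5 lie between 24 and 42 nt and 7 between 11948 and 64158 nt.

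The lncRNAs of the set were of low to moderate level. Their median was 1.299 FPKM at 28°C (interval 0.822 to 1.77) and 0.896 FPKM at 18°C (interval 0.641 to 1.43). The others with a named gene had medians of 1.16 and 0.7998 FPKM, inside those intervals. The highest mean of both groups was 4.53 FPKM, for MSTRG.16107.1 at larp1, whereas 259 of the 3169 others (8.17%) exceeded 5 FPKM. At such a share few of 35 would do so, and having none there sets them little apart. Of the 11 lncRNAs on the separate list of RNA-binding genes described below, 1 did. Multiplied by the transcript length in kb, an FPKM gives FPM, the fragments a transcript received in proportion to all mapped fragments, whatever its length. In the group where each lncRNA was higher, it was between 0.0668 and 7.25 FPM, and it was under 0.5 FPM for 12 of the 35. The share of such thinly covered transcripts was 34.3% here and 37.4% among the others.

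More than 0.5 FPKM in at least 1 group was reached by 34 of the 35. Of these, 3 were higher at 18°C by more than 2-fold (8.82%, Wilson interval 3.05% to 22.96%), 12 were more than 2-fold lower (35.3%, 21.5% to 52.1%) and 19 lay within 2-fold. Among the 3068 others with a named gene above that level, 14.1% were higher, 37.1% lower and 48.8% within 2-fold. Over all 8108 lncRNAs, the shares were 13.3% and 39.4%. The counts of the set are thus near their background in both directions. The median log2 ratio was -0.50 (interval -1.17 to 0.13), against -0.58 among the others and -0.63 over all lncRNAs. Since the whole table is shifted by -0.63, the log2 ratios were also scaled to a median of 0 over all lncRNAs. This was done by subtracting that shift from each log2 ratio, not by scaling the FPKM values. On that scale 8 of the 34 were more than 2-fold higher and 8 lower, the median of the set was 0.13, and 24.1% of the others were higher and 22.1% lower. With 1 FPKM added in place of 0.1, the same 3 of the 34 were more than 2-fold higher, against 4.95% of the others. Of the 12 lower ones only MSTRG.2294.1 at snrnp35 stayed past 2-fold, and 8.05% of the others were lower. With 0.1 FPKM added and no scaling, all 3 higher ones had passed the filter by their 18°C mean alone. Most of the 12 lower ones had passed it by their control mean alone. Both means exceeded 0.5 FPKM for 21 of the 35. That condition leaves out the 3 higher ones. Past 2-fold among the 21 were MSTRG.9008.1 at srsf10a, MSTRG.2294.1 at snrnp35 and the lncRNAs at qkia and eif5b, all lower. The matching share of the others was not computed, so nothing particular to the set can be read from this.

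**Figure D2:**
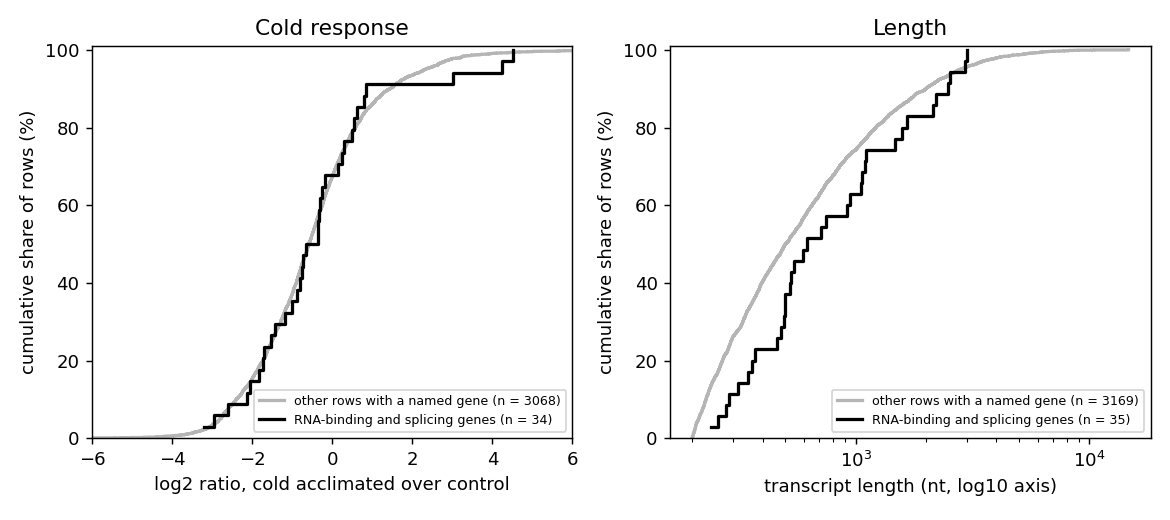
Cumulative share of lncRNAs, in percent, by log2 ratio of 18°C over 28°C (left, above 0.5 FPKM in at least 1 group, x axis limited to 6 in either direction) and by transcript length in nt on a log10 axis (right). The curve of the set (black) follows that of the others with a named gene (grey) in the log2 ratio, with medians of -0.50 and -0.58. In length the medians are 619 nt (interval 500 to 1065 nt) and 501 nt, so that of the others is just inside the interval.

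**Figure D3:**
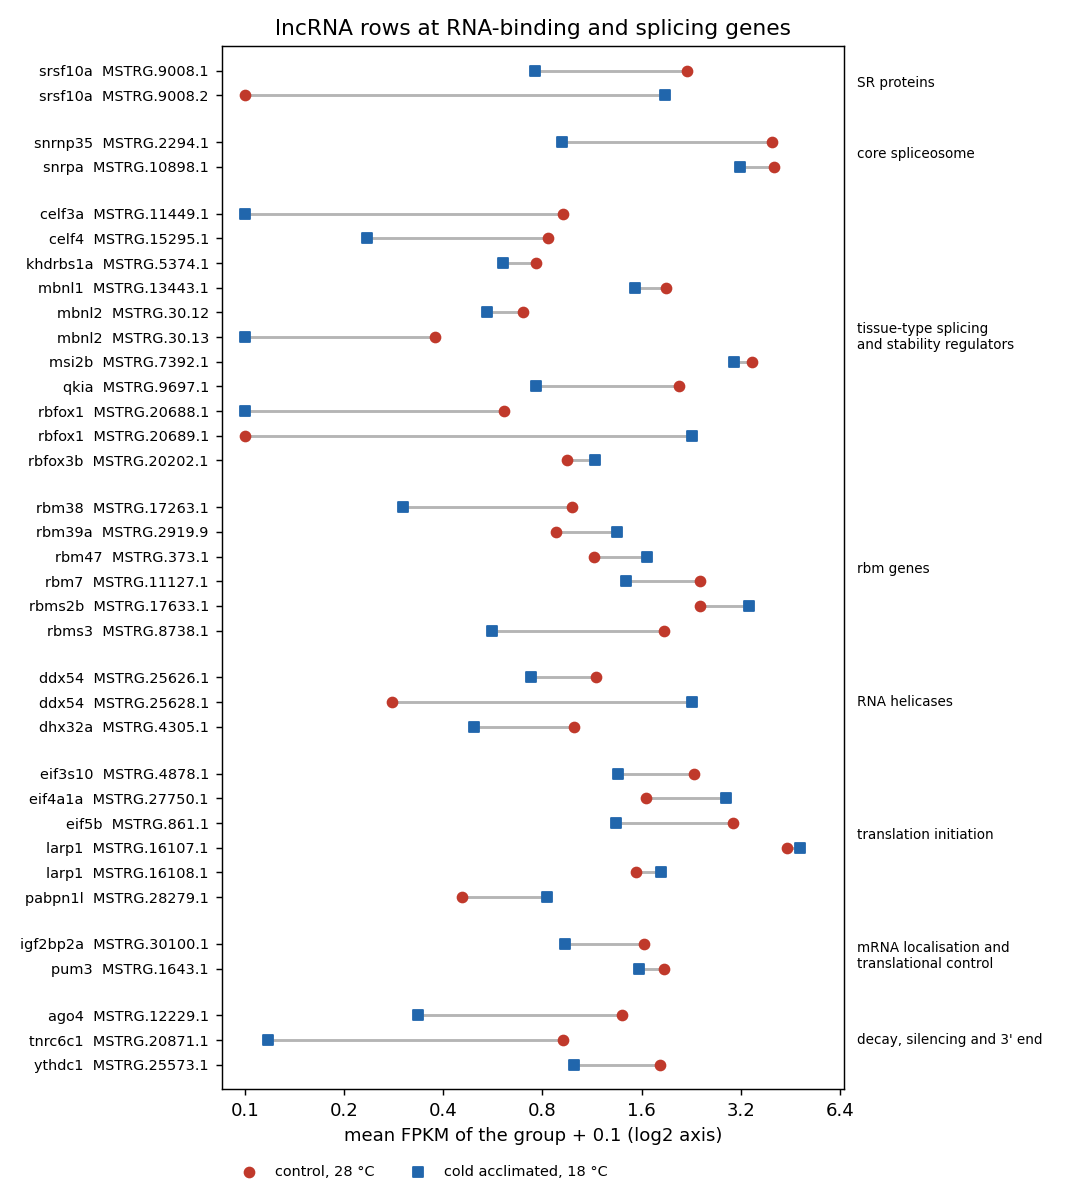
Mean FPKM plus 0.1 in control cells (red circles) and cold acclimated cells (blue squares) of the 35 lncRNAs, on a log2 axis and ordered by the role of the gene. A marker at 0.1 is a listed 0. The 2 lncRNAs at srsf10a, the 2 at rbfox1 and the 2 at ddx54 run in opposite directions. At ddx54 the lower one, MSTRG.25626.1, stays within 2-fold. With the shift of the whole table removed its log2 ratio is -0.01, and that of MSTRG.9008.1 at srsf10a is -0.90. Both at larp1 lie close together in the 2 groups.

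Among the splicing activators, both lncRNAs were at srsf10a. SRSF10 is an SR protein that in human cells becomes a splicing repressor when it is dephosphorylated on heat shock. MSTRG.9008.1 (chromosome 16, 52632235 to 52633915) was at 2.105 FPKM at 28°C and 0.662 FPKM at 18°C, a log2 ratio of -1.53, or -0.90 with the shift of the whole table removed. MSTRG.9008.2 (52632787 to 52633921) was listed at 0 at 28°C and at 1.78 FPKM at 18°C. The 2 transcripts overlap over 1129 nt and end 6 nt apart. Their summed FPKM was 2.105 at 28°C and 2.45 at 18°C, a log2 ratio of 0.21. In FPM the sum went the other way, with 3.49 at 28°C and 3.07 at 18°C. The sum thus lay within 2-fold, whereas the 2 transcripts passed it in opposite directions on the deposited scale, and MSTRG.9008.1 no longer did with the shift removed or with 1 FPKM added. Reads of overlapping transcripts are divided between them by the quantification, which makes the single values uncertain.

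The core spliceosome was represented by snrnp35, a protein of the minor spliceosome, and snrpa, a protein of the U1 particle. Both lncRNAs were near 4 FPKM at 28°C and differed in the cold. MSTRG.2294.1 at snrnp35 (chromosome 10, 44764692 to 44765638) was at 3.88 FPKM at 28°C and 0.815 FPKM at 18°C. Its log2 ratio of -2.12 was lower than that of all but 13.5% of the others with a named gene. MSTRG.10898.1 at snrpa (chromosome 18, 35429129 to 35430215) was at 3.94 and 3.08 FPKM, a log2 ratio of -0.35 that becomes 0.29 when the shift of the whole table is removed.

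The tissue-type regulators of splicing and stability made up the largest group, with 11 lncRNAs at 9 genes. Of the 10 above 0.5 FPKM, 1 was more than 2-fold higher, 4 were lower and 5 lay within 2-fold, near the shares of the others. RBFOX proteins regulate alternative exons in neurons and muscle. At rbfox1, MSTRG.20689.1 (chromosome 3, 28286234 to 28286776) was listed at 0 at 28°C and at 2.18 FPKM at 18°C. MSTRG.20688.1 (28176342 to 28176600), 110 kb away, was at 0.514 FPKM at 28°C and listed at 0 at 18°C. Both have 1 exon. MSTRG.20688.1 was just above the filter, and its 0.133 FPM at 28°C was the lowest of the set above 0.5 FPKM. At rbfox3b, whose mammalian counterpart is the neuronal marker NeuN, MSTRG.20202.1 was at 0.847 and 1.06 FPKM.

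CELF proteins regulate splicing and mRNA decay, and CELF3 and CELF4 are mainly neuronal in mammals. MSTRG.11449.1 at celf3a (chromosome 19, 8953935 to 8954282) was at 0.822 FPKM at 28°C and listed at 0 at 18°C. MSTRG.15295.1 at celf4 (chromosome 21, 12100439 to 12100718) was at 0.735 and 0.136 FPKM, a log2 ratio of -1.82. Both are single exons under 400 nt with under 0.5 FPM. Quaking, encoded by qkia, controls splicing in muscle and glia. Its lncRNA MSTRG.9697.1 was at 1.97 and 0.663 FPKM, a log2 ratio of -1.44, or -0.81 with the shift removed.

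Muscleblind proteins, which are sequestered by repeat RNA in human myotonic dystrophy, had 3 lncRNAs that each spanned over 50 kb. MSTRG.13443.1 at mbnl1 joins 2538 nt of exons over 66.7 kb and was at 1.799 and 1.43 FPKM. At mbnl2, MSTRG.30.12 was at 0.597 and 0.444 FPKM, and MSTRG.30.13 at 0.277 FPKM and a listed 0. Within this overlapping pair the gaps between exons were 55698 and 55690 nt. As at srsf10a, reads are divided between the overlapping transcripts, so the single values of the pair are uncertain. MSTRG.30.13 was the only lncRNA of the set with no mean above 0.5 FPKM. The authors kept transcripts above 0.5 FPKM in at least 1 sample. If that filter used these values, a single control library held over 60.1% of the 0.832 FPKM summed over the 3. Musashi proteins control translation, and MSTRG.7392.1 at msi2b was the third most abundant of the set, at 3.37 and 2.96 FPKM. MSTRG.5374.1 at khdrbs1a, which encodes Sam68, was at 0.663 and 0.507 FPKM.

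The rbm genes had 6 lncRNAs, of which 2 were more than 2-fold lower, near the 37.1% of the others, and none higher. With the shift removed, 3 of the 6 were more than 2-fold higher and 2 lower, against 24.1% and 22.1% of the others. With 1 FPKM added none of the 6 was past 2-fold. MSTRG.8738.1 at rbms3 (chromosome 16, 39781137 to 39784084), a single exon of 2948 nt, was at 1.77 FPKM at 28°C and 0.462 FPKM at 18°C, a log2 ratio of -1.74. MSTRG.17633.1 at the related gene rbms2b was at 2.30 and 3.28 FPKM, and with 7.25 FPM it was the best covered of the set. MSTRG.17263.1 at rbm38, a p53 target that stabilizes the p21 mRNA in human cells, was at 0.881 and 0.202 FPKM with a log2 ratio of -1.70. Its 287 nt received 0.253 FPM at 28°C.

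The other 3 lncRNAs at rbm genes lay within 2-fold. At rbm47, whose mammalian counterpart is a cofactor of RNA editing, MSTRG.373.1 was at 1.05 and 1.57 FPKM. MSTRG.2919.9 at rbm39a, a splicing factor related to U2AF, was at 0.779 and 1.25 FPKM. With the shift of the table removed, the log2 ratios at rbm47, rbm39a and rbms2b were 1.17, 1.25 and 1.13. MSTRG.11127.1 at rbm7, a subunit of the nuclear exosome targeting complex, was at 2.30 and 1.33 FPKM.

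Of the 3 lncRNAs at RNA helicase genes with the stems ddx and dhx, 2 were at ddx54, which encodes a nucleolar DEAD-box protein. MSTRG.25628.1 (chromosome 5, 71558157 to 71571574) was at 0.179 FPKM at 28°C and 2.17 FPKM at 18°C. Its log2 ratio of 3.02 was the highest among the lncRNAs of the set above 0 in both groups, and it reached 3.19 FPM at 18°C. MSTRG.25626.1, a single exon 79.5 kb away, was at 1.06 and 0.641 FPKM, a log2 ratio of -0.65 that is near 0 with the shift removed. MSTRG.4305.1 at dhx32a was at 0.898 and 0.398 FPKM. With a log2 ratio of -1.004 it lay just past the 2-fold bound, from which it moved to -0.37 with the shift removed, and the nearest lncRNA inside the bound was MSTRG.25573.1 at ythdc1 with -0.87.

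**Figure D4:**
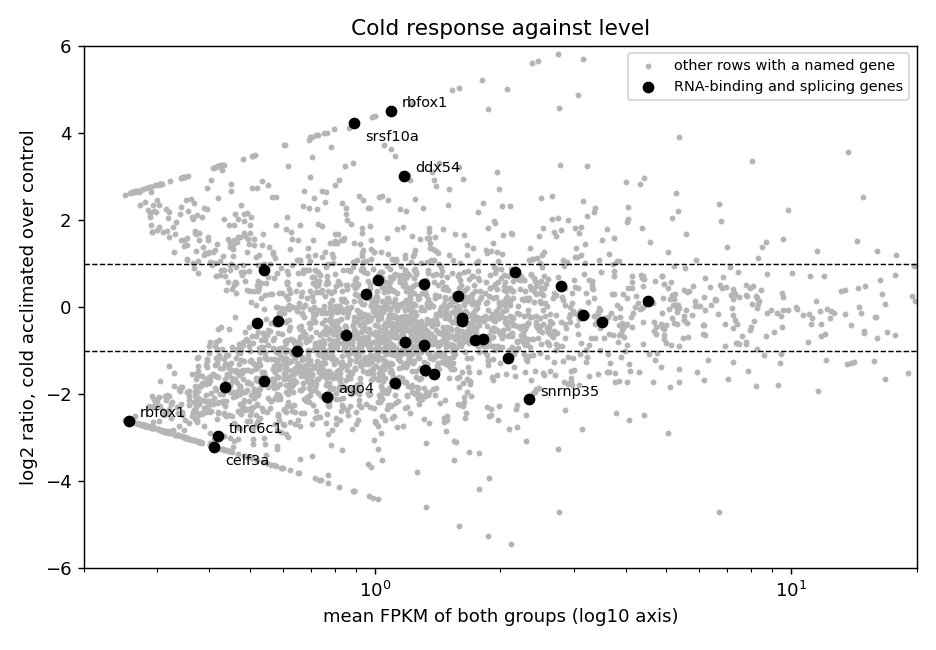
Log2 ratio of 18°C over 28°C against the mean FPKM of both groups, on a log10 axis, for 34 lncRNAs at RNA-binding and splicing genes (black) and the others with a named gene (grey, 73 of them outside the axes). Dashed lines mark 2-fold, genes are named where the log2 ratio is beyond 2 in either direction, and points on the slanted edges are listed at 0 in a group. The 3 that were more than 2-fold higher are at rbfox1, srsf10a and ddx54.

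The genes with the stems eif, pabp and larp, grouped by name under translation initiation, had 6 lncRNAs. Of these, 5 lay within 2-fold, against 48.8% of the others. With the shift removed, 4 of the 6 did and 2 were higher. On that scale 24.1% of the others were higher and 22.1% lower. LARP1 binds the mRNAs of ribosomal proteins and holds back their translation when growth signals are low. MSTRG.16107.1 (chromosome 21, 45821342 to 45822260) was at 4.32 and 4.75 FPKM. MSTRG.16108.1, 5.83 kb away, was at 1.44 and 1.73 FPKM, so both lncRNAs at larp1 differed little between the groups. Their log2 ratios were 0.13 and 0.25, or 0.77 and 0.89 with the shift removed. The exception was MSTRG.861.1 at eif5b, the GTPase that joins the ribosomal subunits, at 2.93 FPKM at 28°C and 1.24 FPKM at 18°C. Its log2 ratio was -1.17, or -0.54 with the shift removed. MSTRG.4878.1 at eif3s10 was at 2.21 and 1.26 FPKM. MSTRG.27750.1 at eif4a1a, an RNA helicase that unwinds mRNA leaders, was at 1.55 and 2.78 FPKM. MSTRG.28279.1 at pabpn1l was at 0.357 and 0.724 FPKM. These last 2 passed 2-fold once the shift was removed, with log2 ratios of 1.44 and 1.48.

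Of the genes of mRNA localisation and translational control, igf2bp2a and pum3 each had 1 lncRNA within 2-fold. MSTRG.30100.1 at igf2bp2a, which binds mRNAs of growth factors, was at 1.53 and 0.834 FPKM. MSTRG.1643.1 at pum3, a nucleolar member of the Pumilio family, was at 1.77 and 1.47 FPKM.

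In the silencing and methylation-reading group, 2 of 3 lncRNAs were more than 2-fold lower at 18°C, against 37.1% of the others. They were at ago4 and tnrc6c1, whose products act together in silencing, and with 1 FPKM added their log2 ratios of -0.90 and -0.84 were within 2-fold. MSTRG.12229.1 at ago4 (chromosome 19, 48095148 to 48111430), with 373 nt in 2 exons, was at 1.299 FPKM at 28°C and 0.235 FPKM at 18°C, a log2 ratio of -2.06. MSTRG.20871.1 at tnrc6c1 (chromosome 3, 34188524 to 34189024), a single exon of 501 nt, was at 0.821 and 0.0179 FPKM. Its log2 ratio of -2.97 was the lowest among the lncRNAs of the set above 0 in both groups. The 2 received 0.484 and 0.411 FPM at 28°C, under the 0.5 that marks thin cover here. MSTRG.25573.1 at ythdc1, a nuclear reader of methylated adenosine, was at 1.73 and 0.896 FPKM.

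Of the 22 lncRNAs with a single exon, 10 were more than 2-fold lower in the cold (45.5%), near the 44.2% of the others with a single exon. Of the 12 with more exons above the filter, 2 were (16.7%), against 26.7% of the others. Of all 12 that were more than 2-fold lower, 6 had under 0.5 FPM at 28°C. Above the filter but under 0.5 FPM, 54.5% of the set and 63.7% of the others were past 2-fold in either direction. From 0.5 FPM up, the shares were 39.1% and 44.3%. Of the 3 more than 2-fold higher, 1 had a single exon, and all had at least 1.19 FPM at 18°C. Under 400 nt, 5 of 7 lncRNAs of the set were more than 2-fold lower, against 38.4% of the others of that length. All 5 had under 0.5 FPM at 28°C, and none stayed past 2-fold with 1 FPKM added. With 7 lncRNAs, that share has no useful precision. From 400 to 1000 nt the count was 3 of 14, and over 1000 nt it was 4 of 13, against 36.3% of the others in both classes. The median log2 ratio was -0.82 for a single exon and -0.32 for more exons. The others showed the same order, with -0.84 and -0.25. The part of read cover in these values was not tested.

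At the 4 genes with 2 lncRNAs above the filter, the pair passed 2-fold in both directions at srsf10a and rbfox1. Among other named genes with exactly 2 such lncRNAs, this was so at 24 of 314 (7.64%). With the shift removed it held at rbfox1 alone and at 27 of the 314, and with 1 FPKM added at none of the 4 and at 5 of the 314. With 4 genes, the share of the set has no useful precision. In each of these pairs a transcript was listed at 0 in a group.

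Genes of RNA binding and processing whose names the pattern leaves out were taken from a separate list and had 11 lncRNAs at 10 genes. Of these, 1 was more than 2-fold higher (9.09%), 4 were lower (36.4%) and 6 lay within 2-fold. These shares are near the 14.1% and 37.1% of the others with a named gene. The median log2 ratio was -0.07, with a wide interval of -2.45 to 0.46. MSTRG.9520.2 at bicc1a, with 2 exons 43278 nt apart, was at 0.00364 FPKM at 28°C and 1.38 FPKM at 18°C. The 2 at adarb2, an RNA-editing enzyme homologue, were at 0.922 and 0.751 FPKM at 28°C, and at 0.184 FPKM and a listed 0 at 18°C. MSTRG.19515.1 at edc3, a decapping activator, was the most abundant, at 6.48 and 7.83 FPKM. None of the 3 lncRNAs with 2 exons on this list had a gap under 50 nt.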

How the data were processed

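Total RNA of ZF4 cells was sequenced after ribosomal depletion with a stranded kit. The authors aligned reads with HISAT2 2.1.0 to GRCz10, assembled and quantified transcripts with StringTie 1.3.3, and kept unannotated transcripts that passed their filters on length, exon number, coding potential and expression. The FPKM values deposited by the authors are group means. Columns holding the authors' own edgeR comparison (fold change, significance, call) were not used.

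A test on replicate values had been planned, but the table holds none, so differences are described by the log2 ratio of the means (pseudocount 0.1 FPKM, filter of more than 0.5 FPKM in at least 1 group, bound of 2-fold). FPM is FPKM multiplied by transcript length in kb. Intervals are 95% Wilson or binomial order-statistic intervals over transcripts. Ratio, filter and interval functions were tested on simulated data. The members, role lists and tests were chosen with earlier results of these data known. The rule for names took the 8 highest and 8 lowest log2 ratios, the 6 highest means, all genes with 2 lncRNAs (5 tied), any cirb or rbm3 gene, and the most abundant lncRNA of each role. It named 26 of 35, and the remaining 9 were added to describe every member. Of RefSeq, only gene names were used, and no sequence was read. Calculations ran in Python 3.11.15 (pandas 2.3.3, numpy 2.4.6, scipy 1.17.1), with matplotlib 3.10.9 for figures.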

Additional observations from a re-analysis of the deposited data

How the results depend on the processing

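No paired analysis was possible because the table holds 1 mean per group, and for the same reason no replicate could be left out. No name caught by the pattern was foreign to RNA biology, so that alternative was not run. The count of lncRNAs more than 2-fold lower went from 12 of 34 to 1 of 34 with a pseudocount of 1 FPKM (snrnp35). It was 6 of 25 with a filter of 1 FPKM and 5 of 34 with a bound of 4-fold. Without transcripts under 0.5 FPM, a choice made after seeing the data, it was 6 of 23. The others with a named gene went from 37.1% to 8.05% lower with a pseudocount of 1 FPKM. Their share was 31.2% with the filter of 1 FPKM and 15.4% with the bound of 4-fold. For the cut on FPM, only the share past 2-fold in either direction was taken, 44.3% of the others and 39.1% of the set. After scaling, the count of higher lncRNAs went from 3 to 8 and the median log2 ratio from -0.50 to 0.13. With a pseudocount of 1, 9 of the 26 lncRNAs named by rule crossed the 2-fold bound, and with scaling 6 did. A pseudocount of 0.01, no filter and a single transcript per locus kept both counts within 1.5 times, and so did 3 alternatives chosen after seeing the data (transcripts summed per locus, short gaps left out, names in either case). Exon share, length and levels stayed within their intervals in the 3 alternatives run on them. Without values per culture, the differences described here from the means cannot be set against their error, and the authors' own test was not used.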

Other observations

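The name pattern is written in lower case, and 2 further lncRNAs carry a name that it would meet in upper case, CELF6. MSTRG.10186.1 and MSTRG.10186.2 have 3 exons, 814 and 816 nt, and the same interval on chromosome 18 (812721 to 878736). The first was listed at 0 at 28°C and at 1.76 FPKM at 18°C, and the second was at 5.60 and 3.79 FPKM. Their exon lengths differ by 2 nt in total, so the division of reads between them is uncertain.

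The most abundant listed lncRNA within 30 kb of a member had no named gene. MSTRG.13441.1, a single exon of 1423 nt on chromosome 2 (47978605 to 47980027), lay 15.3 kb from the mbnl1 lncRNA and was at 25.8 FPKM at 28°C and 29.3 FPKM at 18°C. MSTRG.11450.1, 11.99 kb from the celf3a lncRNA that was listed at 0 at 18°C, was itself listed at 0 at 28°C and at 0.488 FPKM at 18°C. Both were singled out after their values were seen.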
